A study of Mus musculus with 8 samples.

Results

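The genes described here encode the proteins of the cytosolic ribosome. They were chosen by name and not by their values: every protein-coding gene of the table whose symbol is Rps, Rpl or Rplp followed by its number, with an optional letter or paralog ending, and Rpsa. This took 83 of 55421 gene identifiers: 31 genes of the small subunit, 43 of the large subunit, 3 of the stalk and 6 paralog forms. Poly-A RNA was sequenced from the vagal region, the tissue beside somites 1 to 7, of embryos on embryonic day 9.5. In 4 libraries (trex) the embryos were homozygous for the trex allele of Rdh10, the retinol dehydrogenase that makes the precursor of retinoic acid. The other 4 libraries (wt) came from wild type embryos of the same stage. The labels do not say whether a library is 1 embryo or a pool, or which litter it came from, so every p measures the spread between these libraries, which may be partly technical.

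A ribosome is built from a small subunit, which reads the mRNA, and a large subunit, which joins the amino acids. A flexible stalk of acidic proteins on the large subunit recruits the elongation factors. Most ribosomal proteins are present once per ribosome, their genes are active in every growing cell, and their mRNAs are among the most abundant of the embryo. Many of these mRNAs begin with a 5′ terminal oligopyrimidine tract (TOP), a C followed by a run of C and T, through which growth signals of the TOR pathway set their translation. Mammalian genomes also hold many processed pseudogenes of ribosomal protein genes, intronless copies of the mRNA, so a short read from one of these mRNAs can match several places.

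The tract was found in the RefSeq promoters of build GRCm38.p6, which matched 63 of the 83 genes. A C at the annotated start followed by at least 4 C or T, on the strand of the gene, was present in 13 of the 63 (20.6%), against 813 of 27025 genes in the whole promoter table (3.01%). Allowing the tract to begin within 10 bases either side of the start gave 39 of 63 (61.9%), against 34.4% of all genes. The 5 windows below run from 10 bases before the start to 15 bases from it, with the tract in capitals. They are shown for Rps6, whose protein is the classical substrate of the TOR-regulated S6 kinase, for the stalk gene Rplp2, for Rps27 and Rpl38, which are described with their levels, and for Rpl15, which has the longest tract of the 13.
Rps6, chr4:86857353-86857377, minus strand: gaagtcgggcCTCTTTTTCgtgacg
Rplp2, chr7:141447641-141447665, plus strand: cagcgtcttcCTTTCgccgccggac
Rps27, chr3:90213634-90213658, minus strand: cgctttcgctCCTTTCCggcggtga
Rpl38, chr11:114668570-114668594, plus strand: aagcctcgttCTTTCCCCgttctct
Rpl15, chr14:18270972-18270996, minus strand: agaaagccttCTTCCTTTCCTCTgg
The tract had 9 bases in Rps6, 5 in Rplp2, 7 in Rps27, 8 in Rpl38 and 13 in Rpl15. Over the whole promoter of 300 bases, searched on both strands, the ETS-type motif CCGGAAG was in 26 of 63 members (41.3%) and in 9.93% of all genes. The YY1-type motif AAGATGGC was in 6 members (9.52%) and in 3.19% of all genes, and TATAAA in 7 members (11.1%) and in 15.7% of all genes. These are matches of letters and not measured binding sites.

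The members ranged widely in abundance. Levels are in TPM, a transcript abundance corrected for gene length and library total. Of the 83 genes 80 had a mean of at least 1 TPM over the 8 libraries and were tested. The 3 below it were paralog forms that are best known from other tissues: Rpl10l and Rpl39l from testis and Rpl3l from heart and skeletal muscle. Rpl10l was listed at 0 in every library, Rpl3l at 0 to 0.107 TPM and Rpl39l at 0 to 0.626 TPM. Among the tested members the median was 106 TPM, against 20.5 TPM for all 15717 genes tested, and the range ran from 2.80 TPM for Rpl24 to 7282 TPM for Rplp1. Rplp1 alone held 18.1% of all TPM of the members, the 8 most abundant genes held 65.3%, and the 32 tested members under 50 TPM held 1.65%. Rplp1, Rpl4, Rpl8, Rps15, Rplp0 and Rps3 were among those 8.

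Low TPM went with sequence shared with other genes. For each gene, the share of all stretches of 50 bases of its mRNA that also occur in another annotated gene was counted. In 80 of the 83 members at least 1 such stretch was shared, the median share was 53.6%, and the copies included 1097 different pseudogenes. The 48 members that shared 50% or more had a median of 36.3 TPM, and the 32 tested members that shared less had a median of 328 TPM. Rank correlation between share and mean TPM over the 80 genes was -0.60, a description across genes that are not independent.

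**Figure D1:**
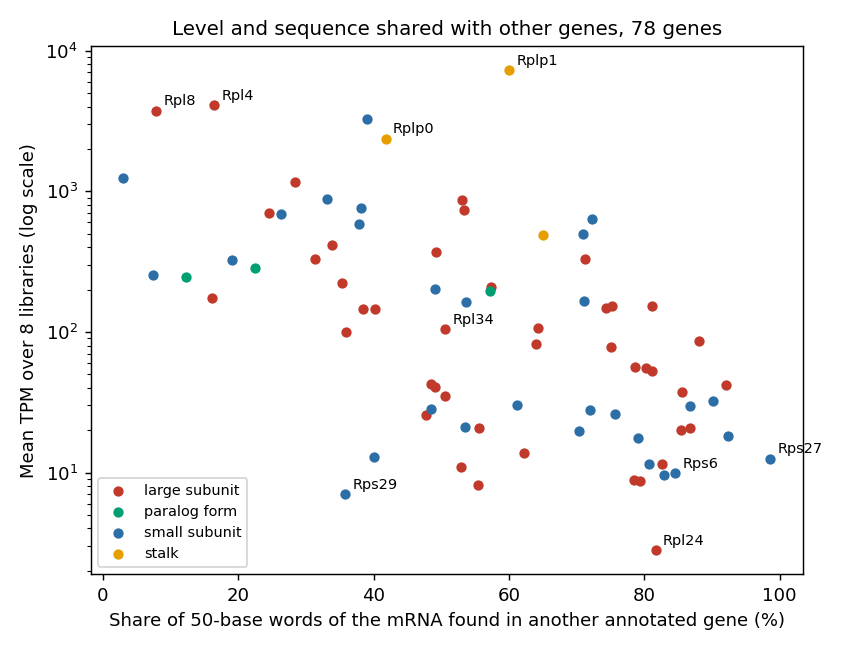
Mean TPM over the 8 libraries (log scale) against the share of 50-base stretches of the mRNA found in another annotated gene (%), 1 point for each of 78 tested genes, coloured by subunit. Genes with little shared sequence, such as Rpl8 (7.86%) and Rpl4 (16.5%), sit at 3726 and 4106 TPM, while Rps27 (98.6%) and Rpl24 (81.7%) sit at 12.5 and 2.80 TPM, and Rplp1 (60%) and Rps29 (35.8%) stand away from this order.

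The extremes show the size of this relation. Rps27, a zinc-binding protein of the small subunit, shared 98.6% of its mRNA with 9 other genes and stood at 12.5 TPM. Rps6 shared 84.6% with 14 genes and stood at 9.88 TPM, and Rpl24 shared 81.7% with 9 genes and stood at 2.80 TPM. Rpl8 shared 7.86% with 1 other gene and stood at 3726 TPM. Exceptions ran both ways: Rplp1 shared 60% and was the most abundant member, whereas Rps29 shared 35.8% and stood at 7.03 TPM. Where copies exist, a level in this table need not be the amount of that mRNA. How the counting treated reads with several matches is not given in the sources used here, and its part in these levels was not tested. The TPM values also rest on the length of all annotated exons of a gene, which was a median of 2.35 times the mRNA length in the members and 9.80 times in Rps15a.

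Rpl34, a large subunit gene at chr3:130726831-130730398, split the libraries without regard to genotype. It was chosen after its values were seen. In trex it stood at 238, 175, 19.0 and 16.8 TPM, and in wt at 188, 15.8, 18.4 and 168 TPM, in replicate order. Thus trex 1, trex 2, wt 1 and wt 4 were high and the other 4 low, with 2 libraries of each genotype on either side. The whole reads behind these values were 2582 to 3626 in the high libraries and 237 to 284 in the low ones. The log2 difference between genotypes was 0.13 ± 1.14 (SE), with a 95% interval from -2.47 to 2.73 and a limma adjusted p of 0.950. No other member had an interval that reached past 1 on the log2 scale.

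Its processed pseudogene Rpl34-ps2, at chr13:116153781-116154134, took the opposite order. It stood at 24, 21.1, 32.5 and 37 TPM in trex and at 20.3, 31.4, 31 and 18 TPM in wt, so each library that was high for Rpl34 was lower for the pseudogene than each library that was low for it. The coding sequence of Rpl34 has 354 bases and differs from the pseudogene at 10 of them, an identity of 97.2%, and the longest identical run is 106 bases. The window with the most differences, coding bases 179 to 238 of the GENCODE M21 transcripts, is shown with the 4 differing bases in capitals. Within the window only these bases can tell a read of the gene from one of the copy. The other differing bases lie outside it.
Rpl34: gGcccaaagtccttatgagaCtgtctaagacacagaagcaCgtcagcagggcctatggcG
Rpl34-ps2: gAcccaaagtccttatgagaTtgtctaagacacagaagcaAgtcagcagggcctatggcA
Of the 9 other genes that shared sequence with Rpl34, Gm10086 was the only other one above 2 TPM in any library, at 10.2 to 31.3 TPM. The sum of 4 Y-linked genes was 162 TPM in wt 2 and 158 TPM in wt 3, both low for Rpl34, and at most 0.0662 TPM elsewhere, where 2 libraries were low and 4 high. What set the split was not tested.

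**Figure D2:**
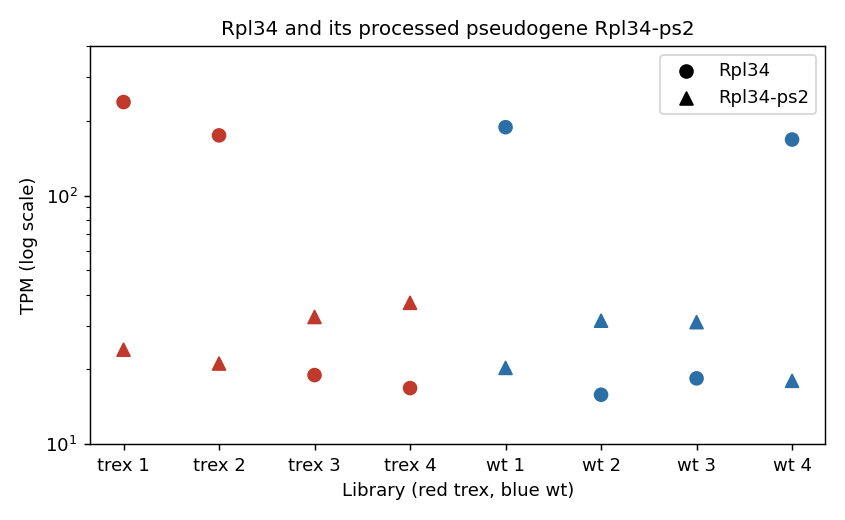
TPM (log scale) of Rpl34 (circles) and its processed pseudogene Rpl34-ps2 (triangles) in each library, trex in red and wt in blue. Rpl34 lies between 168 and 238 TPM in trex 1, trex 2, wt 1 and wt 4 and between 15.8 and 19.0 TPM in the other 4, where the pseudogene is highest.

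The question of the design is how expression in the vagal region differs between Rdh10 trex and wild type embryos. No ribosomal protein gene was called different. In limma with Benjamini-Hochberg adjustment, 0 of the 80 tested members had an adjusted p below 0.05, where 8.71% of all tested genes did, 4.94% higher and 3.77% lower in trex. On recovered reads, limma voom also called 0 members. At an unadjusted p below 0.05 there were 4 members (5.0%) in either fit, against 29.0% of all genes in limma on TPM. The 4 trex and 4 wt values did not overlap in 6 members (7.5%), against 21.8% of all genes. The median SE of the log2 difference was 0.125 in the members and 0.110 over all genes. The members were no more precise although their median level was higher, at 106 against 20.5 TPM. Median SE was lower in mitochondrial ribosomal proteins (0.067 at a median of 71.3 TPM) and in initiation factors (0.056 at 251 TPM). In low oxygen response and glycolysis genes it was higher (0.301 at 110 TPM). The part of precision in the low number of calls was not tested. The 95% interval lay within 1 of 0 on the log2 scale in 79 members and within 0.5 in 57. Y-linked transcripts summed to 162 TPM in wt 2 and 158 TPM in wt 3, and to at most 0.0662 TPM elsewhere. No trex library held them at a higher level, so sex was not balanced between the genotypes. With sex as a covariate, limma called 0 members and 0.248% of all tested genes, 9 higher and 30 lower. The other calls given here come from fits without sex. In bulk tissue, a change in the number of cells of a type and a change of RNA per cell cannot be told apart.

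The differences leaned to slightly higher values in trex. The log2 difference was above 0 in 61 of 80 members (76.2%), against 56.7% of all genes, with a median of 0.098 in the members and 0.039 over all genes. By subunit it was above 0 in 25 of 31 small subunit genes (median 0.0995), 32 of 43 large subunit genes (0.097) and 3 of 3 stalk genes (0.146), but in 1 of 3 tested paralog forms (-0.12). All 24 members with a mean of 300 TPM or more were above 0, with a median of 0.156, whereas the 32 under 50 TPM had a median of 0.066 and 20 above 0. Without trex 1, the median over the members was 0.036 and 46 of 80 were above 0, against a median of 0.021 over all genes. The lean also depended on scaling. Above 0 were 56 of 80 members with median-of-ratios rescaling (median 0.062), 55 with quantile normalization (0.070) and 54 with voom (0.052). Without globin, mitochondrial and sex chromosome genes it was 52 of 76 (0.058). Scaled to the total of the other genes, it was 62 of 80 (0.105).

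Trex 1 stood apart. Together the 83 genes held 4.99, 3.90, 3.98 and 4.12% of all TPM in trex and 3.94, 3.80, 3.79 and 3.74% in wt. Trex 1 was far above every other library, and the other 3 trex libraries reached from just under the highest wt library to just above it. The means were 4.25 ± 0.503% in trex and 3.82 ± 0.0861% in wt (SD, n = 4 each), a ratio of 1.11, and the ratio was 1.05 without trex 1.

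**Figure D3:**
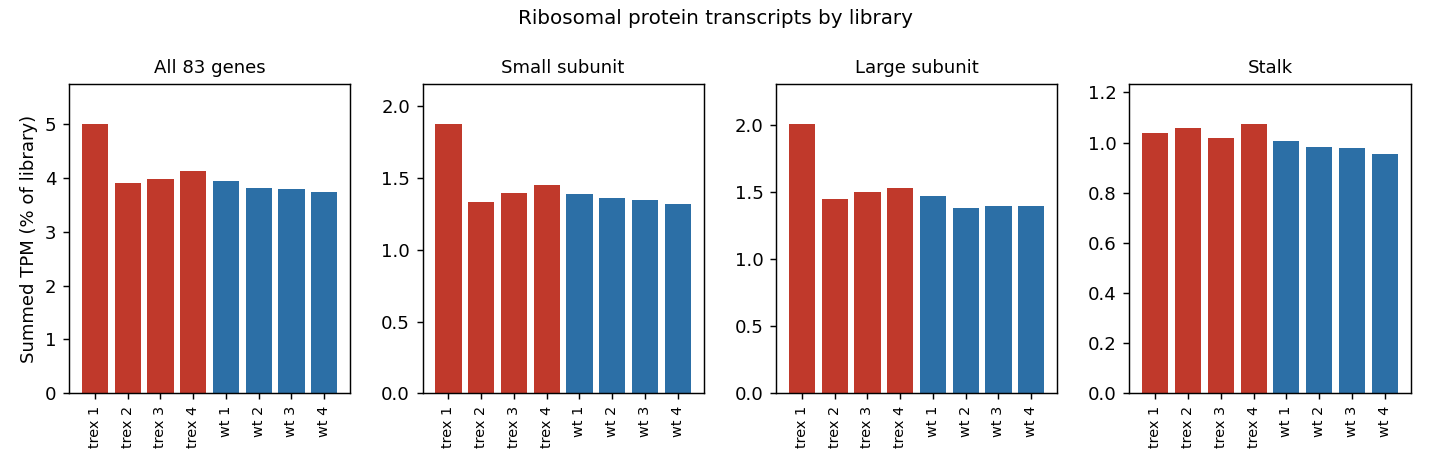
Summed TPM of the ribosomal protein genes as a percentage of each library, for all 83 genes, the small subunit, the large subunit and the stalk, 1 bar per library (trex red, wt blue). Trex 1 is the highest library for both subunits (1.87 and 2.00%) but not for the stalk, where all 4 trex libraries (1.02 to 1.07%) lie above all 4 wt libraries (0.956 to 1.01%). Most of the stalk sum is Rplp1.

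Both subunits followed this pattern, and the stalk sum did not. Small subunit genes summed to 1.87, 1.33, 1.40 and 1.45% in trex and 1.39, 1.36, 1.34 and 1.32% in wt, and large subunit genes to 2.00, 1.45, 1.499 and 1.53% against 1.47, 1.38, 1.40 and 1.39%. Both sums were highest in trex 1, and in both trex 2 lay below wt 1. The 3 stalk genes summed to 1.04, 1.06, 1.02 and 1.07% in trex and 1.01, 0.983, 0.977 and 0.956% in wt, without overlap and without a peak in trex 1. Most of this sum was Rplp1, with a mean of 7282 TPM beside 2370 TPM for Rplp0 and 489 TPM for Rplp2. Singly, Rplp0 and Rplp2 were highest in trex 1. Values did not overlap in 0 of the 3 stalk genes, against 21.8% of all genes.

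Trex 1 held the highest value of the 8 libraries in 47 of the 80 members (58.8%), against 38.2% of all genes. This was the case in 22 of the 24 members at 300 TPM or more and in 18 of the 24 between 50 and 300 TPM, but in 7 of the 32 under 50 TPM. Among those 32, wt 1 was the highest library in 13. Trex 2 was the lowest library in 21 members (26.2%), against 12.2% of all genes, and none of these was under 50 TPM. The median difference of a member from its wt mean was 0.29 on the log2 scale in trex 1, 0.02 in trex 2, 0.06 in trex 3 and 0.03 in trex 4.

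**Figure D4:**
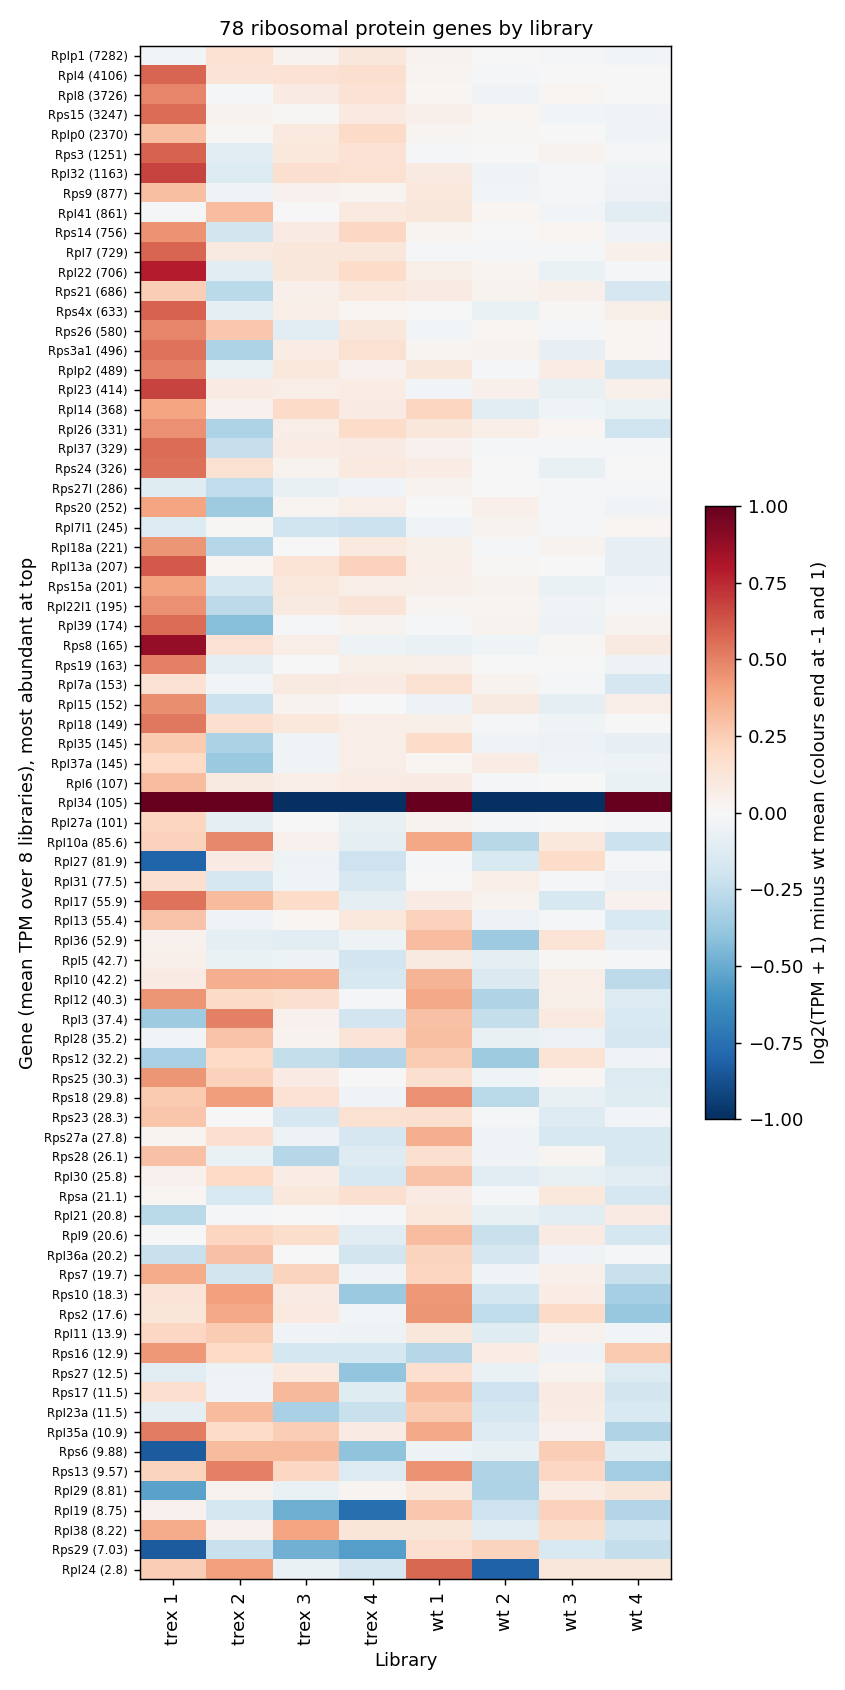
Difference of log2(TPM + 1) from the wt mean for 78 tested members (lines of the map, most abundant at the top, mean TPM in brackets) in each of the 8 libraries, with colours ending at -1 and 1. Trex 1 is red over most of the upper part, where it is the highest library in 20 of the 22 genes drawn at 300 TPM or more, the lower part has no such column, and Rpl34 alternates between the ends of the scale.

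Other measures also had their highest or lowest value in trex 1, and some differed over more of the trex libraries. Transcripts of the mitochondrial genome made up 2.61% of its TPM, against 7.15, 4.82 and 4.50% in trex 2 to 4 and 6.73 to 7.95% in wt. Globin transcripts made up 0.310%, against 0.959 to 1.61% in the other trex libraries and 0.735 to 1.65% in wt. The mean log2(TPM + 1) of 21 low oxygen response and glycolysis genes was 7.83, against 6.03, 6.89 and 7.32 in trex 2 to 4 and 5.61 to 5.66 in wt. In this mean all 4 trex libraries lay above all wt libraries. Of the 21 genes, 14 were called higher in limma (66.7%, against 4.94% of all tested genes), and 0 to 21 without single libraries. From trex 1 through trex 4 and trex 3 to trex 2, this mean and the ribosomal protein sum fell while the mitochondrial share rose. The part of these measures in the ribosomal protein values was not tested. Pseudogenes that share sequence with the members summed to 0.286% in trex 1, 0.204 to 0.268% in the other trex libraries and 0.220 to 0.253% in wt.

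Of the large subunit, Rpl4 and Rpl8 were the most abundant. Rpl4, part of which lines the tunnel through which the new protein leaves, stood at 5593, 4079, 4113 and 4154 TPM in trex and at 3794, 3688, 3713 and 3711 TPM in wt. The groups did not overlap, and trex 1 was far above the other 3 trex libraries. Rpl4 differed by 0.25 ± 0.11 (SE) on the log2 scale. Its limma adjusted p was 0.167, and the exact permutation test, two-sided, gave p = 0.0286, the lowest possible with 4 against 4. Rpl8, close to the site where the peptide bond forms, stood at 4894, 3445, 3681 and 3856 TPM in trex and 3398 to 3536 TPM in wt, with overlap. Its log2 difference was 0.18 ± 0.11 and its adjusted p 0.308 in limma.

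The other large subunit genes without overlap were Rpl7, Rpl18 and Rpl23, all chosen after their values were seen. Rpl7 lies 1111 bases from Rdh10 on chromosome 1, on the opposite strand. It stood at 1000.3, 711, 723 and 724 TPM in trex and at 664, 659, 659.9 and 694 TPM in wt, and the lowest trex library was close above the highest wt library. The log2 difference of Rpl7 was 0.22 ± 0.11 with an adjusted p of 0.202 in limma, while that of Rdh10 was 0.92 ± 0.15 with an adjusted p of 0.0126, from 76.0 ± 20.2 TPM in trex and 38.8 ± 2.20 TPM in wt. Rpl23 stood at 603, 400.5, 396 and 398 TPM in trex and 359 to 391.6 TPM in wt, so that trex 1 alone was far from wt. Rpl18 stood at 198, 154, 147 and 143.2 TPM in trex and at 133 to 142.7 TPM in wt, so the groups almost touched. The adjusted p of Rpl18 in limma was 0.172.

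Rpl5 and Rpl11 bind the 5S rRNA and, when ribosome assembly is disturbed, the p53 regulator Mdm2. Rpl5 stood at 45.2, 41.6, 42.0 and 38.0 TPM in trex and 46.4, 40.9, 44.0 and 43.2 TPM in wt, and Rpl11 at 15.6, 16.1, 13 and 12.8 against 14.5, 12.2, 13.7 and 13 TPM. In both the groups overlapped in part, with log2 differences of -0.07 ± 0.07 and 0.10 ± 0.10. Rpl38, whose loss in the tail short mouse alters the axial skeleton, was chosen after its values were seen and stood at 9.91, 7.69, 10.1 and 8.17 TPM in trex and 8.15, 6.83, 8.53 and 6.35 TPM in wt. The adjusted p of Rpl38 was 0.248 in limma.

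Of the small subunit, Rps15 and Rps3 were among the most abundant genes. Rps15, needed for export of the small subunit from the nucleus, stood at 4465, 3109, 3049 and 3238 TPM in trex and 2953 to 3132 TPM in wt. Rps3, at the channel through which mRNA enters, stood at 1753, 1076, 1249.9 and 1282 TPM in trex and 1143 to 1187 TPM in wt. In both trex 1 was the high library and the other trex libraries overlapped with wt or lay close to it. The log2 differences were 0.18 ± 0.12 for Rps15 and 0.18 ± 0.13 for Rps3, with limma adjusted p values of 0.357 and 0.369.

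Rps29, a zinc-binding protein of the small subunit, had the smallest adjusted p of all members. It stood at 4.25, 7.02, 5.71 and 5.41 TPM in trex and at 9.56, 9.93, 7.41 and 6.95 TPM in wt. Only trex 2 and wt 4 overlapped, by less than 0.1 TPM. The log2 difference was -0.52 ± 0.16 (95% interval -0.89 to -0.16), the adjusted p in limma 0.0781 and the exact permutation p 0.0571. Rps29 is weakly expressed in this table and shares 35.8% of its mRNA with 7 other genes. Without trex 2 its adjusted p was 0.0332.

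Rps6, whose start is shown above, stood at 5.25, 12.8, 12.8 and 7.41 TPM in trex and 9.75, 9.56, 12.2 and 9.22 TPM in wt, so the trex libraries lay on both sides of wt. Rpsa, the laminin receptor precursor of the small subunit, stood at 21.1, 18.6, 22.5 and 23.3 TPM in trex and 22.1, 20.4, 22.4 and 18.4 TPM in wt. Rps19, the gene most often mutated in Diamond-Blackfan anaemia, stood at 221, 145, 154 and 162 TPM in trex and 150 to 161 TPM in wt. Of these only Rps19 had its highest value in trex 1, and none had an adjusted p under 0.5 in limma.

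The stalk genes Rplp0, Rplp1 and Rplp2 differed from one another. Rplp1 stood at 6976, 7890, 7279 and 7696 TPM in trex and 7287, 7112, 7051 and 6966 TPM in wt. Here trex 2 was highest and trex 1 next to lowest, unlike most other abundant members. Rplp0, the base of the stalk, stood at 2758, 2265, 2396 and 2566 TPM in trex and 2180 to 2292 TPM in wt, and Rplp2 at 653, 440, 496 and 474 TPM against 498, 455, 484 and 410 TPM. Both were highest in trex 1. Rplp1 and Rpl41 were the 2 members at 300 TPM or more whose highest library was not trex 1, and both were highest in trex 2. Rpl41, which encodes the smallest ribosomal protein and was chosen after its values were seen, stood at 822, 1028, 828 and 889 TPM in trex and 773 to 896 TPM in wt.

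Of the paralog forms, 2 were lower in trex at an unadjusted p below 0.05. Rps27l, a paralog of Rps27 and a known p53 target, stood at 273, 250.4, 283 and 290 TPM in trex and at 305, 297, 296 and 294 TPM in wt. All trex libraries lay below all wt libraries, at -0.12 ± 0.05 on the log2 scale with a limma adjusted p of 0.159. Rpl7l1, a paralog of Rpl7 with a role in making the large subunit, stood at 232, 259, 223 and 221 TPM in trex and at 250 to 263 TPM in wt, with overlap through trex 2 only. Its log2 difference was -0.13 ± 0.06 and its adjusted p 0.155 in limma, or 0.0208 without trex 2. Rpl22l1 stood at 256, 155, 199 and 203 TPM in trex and 182 to 190.1 TPM in wt. Its relative Rpl22, chosen after its values were seen, stood at 1097, 592, 689 and 721 TPM in trex and 607 to 662 TPM in wt. In this pair trex 1 was highest and trex 2 lowest of the 8 libraries.

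**Figure D5:**
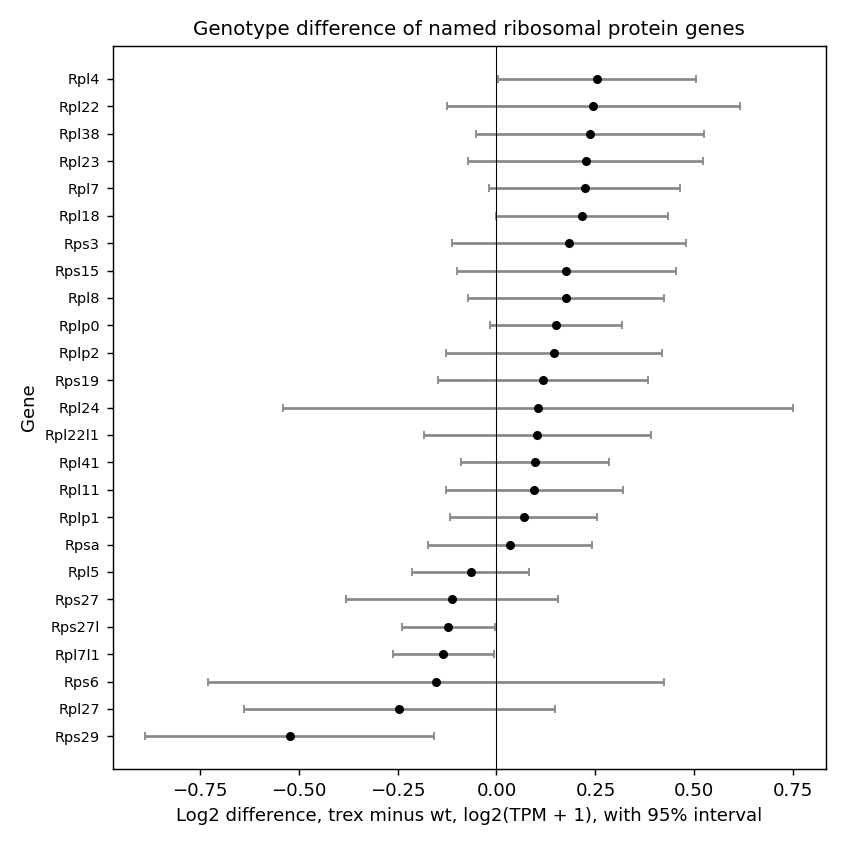
Log2 difference, trex minus wt, on the log2(TPM + 1) scale with its 95% interval for 25 members described or chosen after their values were seen (Rpl34, with an interval from -2.47 to 2.73, is not drawn). Most points lie between 0 and 0.26, Rps29 is lowest at -0.52, and none has an adjusted p below 0.05 in limma.

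Ribosomal proteins whose names fall outside the rule gave 0 calls of 5 tested in limma on TPM and with voom. Of these, Fau, which encodes a small subunit protein fused to a ubiquitin-like part, had an unadjusted p below 0.05 in limma. It stood at 63.3, 53.5, 51.0 and 47.7 TPM in trex and 48.3, 42.9, 42.2 and 37.8 TPM in wt, with an adjusted p of 0.0790. Rack1, a scaffold protein on the small subunit, stood at 1850.1, 1215, 1404 and 1487 TPM in trex and 1280 to 1342 TPM in wt, so that trex 1 was highest and trex 2 lowest of the 8 libraries.

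Other genes that serve ribosomes and translation gave few calls. Of 40 ribosome biogenesis genes 1 (2.5%) was called higher in trex, where 4.94% of all tested genes were. This was Gnl3, a nucleolar GTPase, at 176 ± 16.1 against 144 ± 4.66 TPM with an adjusted p of 0.0370 in limma. The call was lost without trex 3 or any 1 wt library, and without trex 2 there were also 4 genes called lower. The list's median log2 difference was 0.024, with 23 of 40 above 0. Among 28 tested initiation factors 1 (3.57%) was called lower, where 3.77% of all tested genes were. This was Eif1, which guards start codon choice, at 221 ± 11.1 against 255 ± 9.98 TPM with an adjusted p of 0.0423 in limma. That call was lost without trex 3, trex 4 or any 1 wt library, while 2 factors were lower without trex 1 and 3 without trex 2.

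Other mRNAs known to carry the TOP tract gave 3 calls of 18 (16.7%), all higher in trex, where 4.94% of all tested genes were called higher. These were the poly-A binding protein genes Pabpc4 (86.6 ± 6.02 against 70.3 ± 4.31 TPM, adjusted p = 0.0299 in limma) and Pabpc1 (771 ± 72.5 against 632 ± 22.1 TPM, adjusted p = 0.0423), and the helicase gene Eif4a2 (263 ± 56.0 against 178 ± 19.5 TPM, adjusted p = 0.0429). The list's median log2 difference was 0.13, 17 of 18 were above 0, and trex 1 was the highest library in 16. There was no call without trex 3, trex 4, wt 1, wt 2 or wt 4, there was 1 without wt 3, and there were 5 without trex 2. Of 20 TOR and stress regulators of translation 2 were called higher (10%, against 4.94% of all tested genes). These were Ddit4, an inhibitor of TOR induced by low oxygen, and Eef2k, the kinase that slows elongation. Ddit4 stood at 1336, 165, 757 and 1222 TPM in trex and 88.1 to 104 TPM in wt, with an adjusted p of 0.0254 in limma. It was lowest of the trex libraries in trex 2. Eef2k stood at 32.1 ± 6.48 against 20.03 ± 1.27 TPM, with an adjusted p of 0.0263 in limma. This list had no call without trex 4 or any 1 wt library, 1 without trex 3 and 4 without trex 2.

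The proteins of the mitochondrial ribosome went the other way in sign. Of 77 tested genes of that ribosome 2 (2.60%) were called lower in trex, where 3.77% of all tested genes were. These were Mrpl34 (195 ± 23.3 against 260.1 ± 14.5 TPM, adjusted p = 0.0267 in limma) and Mrps22 (47.7 ± 1.72 against 54.6 ± 1.26 TPM, adjusted p = 0.0389). The median log2 difference of the 77 genes was -0.08, and 58 were below 0. In 16 all trex values lay below all wt values, where 8.95% of all genes did so. Genes of that ribosome summed to 0.618 to 0.684% of TPM in trex and 0.702 to 0.719% in wt, without overlap. Calls numbered 4 without trex 1, 13 without trex 2, 1 without trex 3 and none without trex 4 or any 1 wt library. Short subunits of the respiratory chain, a list of 39 genes, gave 0 calls in limma on TPM or with voom. In this list 6 genes had an unadjusted p below 0.05 in limma (15.4%, against 29.0% of all genes), and the median log2 difference was -0.09.

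Over the series, the whole reads recovered from TPM came to between 20928971 and 23648645 per library. Of 15717 genes tested, 777 were higher and 592 lower in trex, or 633 and 809 with limma voom. Markers of the labelled tissue were present, with 6 of 6 vagal neural crest genes, 5 of 5 neural tube genes and 5 of 5 somite genes at 1 TPM or more. Macrophage markers were not, with Ptprc, Adgre1 and Csf1r all under 1 TPM. Forebrain markers, which should be absent, had 2 of 3 genes at 1 TPM or more. They summed to 3.27 to 6.32 TPM in trex and 6.11 to 10.3 TPM in wt. Caudal trunk markers, which should be low, had 1 of 4 genes at 1 TPM or more. They summed to 2.36 to 3.75 TPM in trex and 0.0539 to 5.65 TPM in wt. Summed heart markers varied from 114 to 1112 TPM in trex and from 88.8 to 1216 TPM in wt, and liver and yolk sac endoderm markers from 5.04 to 429 and from 1.96 to 153 TPM. Endothelium and surface ectoderm marker sums did not overlap between the genotypes, while the sums of the other marker lists did. Of all tested genes, 21.8% did not overlap. For surface ectoderm the lowest trex sum (315.2 TPM) was close above the highest wt sum (312.9 TPM). The sum of 4 endothelium markers was 225 to 295 TPM in trex and 174 to 204 TPM in wt, and that of 4 surface ectoderm markers 315 to 636 TPM in trex and 235 to 313 TPM in wt. The part of other tissues in the values of the members was not tested. The labels give no batch or date.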

How the data were processed

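The deposited values are TPM, made by the authors, 1 column per library. Builds and tools named per the submitters' processing notes are mm10, STAR and CASAVA 1.8.2. Not given in the sources used here were the read counter, its treatment of reads with several matches, the annotation and the gene lengths. Symbols, lengths and coordinates came from GENCODE M21, which matched 55240 of 55421 identifiers. Of the low values (up to 200 reads), 98.7 to 98.9% per library, multiplied by exonic length, were whole reads within 0.001 read, and these reads gave the depth. Genes with a mean of at least 1 TPM were tested with limma 3.58.1 in R 4.3.3 (lmFit, eBayes with trend) on log2(TPM + 1), two-sided, genotype only, with Benjamini-Hochberg adjustment over all tested genes and a call at an adjusted p below 0.05. The 1 TPM added before the log understates changes of weak genes. The fit was also tested on simulated data. Members and lists were chosen with earlier results of these data known. Named were the 8 most abundant members, the 4 with the smallest p, stalk genes, paralog forms, Rps6, Rpsa, Rpl5, Rpl11 and Rps19, any called members, and up to 3 called genes per other list. Members left unnamed despite this rule, or not drawn, are not reported here singly but stay in the counts. Other pseudocounts, filters, scalings, weights, left-out libraries, limma voom on recovered reads, a replicate block and sex as a covariate were tried. For a single value an exact permutation test was used.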

Additional observations from a re-analysis of the deposited data

Results flagged for a closer look

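In each group of 4 libraries, a value was marked where the highest or lowest library stood away from the nearest other by more than Dixon's 95% critical value. Of 66 groups tested 7 were marked, 5 of them through trex 1. Chance marks about 1 in 20 independent groups, but this count cannot be read against it: Rpl7 and Rpl23, with 3 of the marks, were chosen after their values were seen, and the large subunit sum contains Rpl4, Rpl7 and Rpl23. In trex, trex 1 stood at 5593 TPM for Rpl4 (the other 3 at 4079 to 4154), at 4465 TPM for Rps15 (3049 to 3238), at 1000.3 TPM for Rpl7 (711 to 724) and at 603 TPM for Rpl23 (396 to 400.5). The summed share of the large subunit genes was 2.00% in trex 1 and 1.45 to 1.53% in the other trex libraries. In wt, wt 4 stood at 694 TPM for Rpl7 (659 to 664), and wt 1 at 1.47% for the large subunit sum (1.38 to 1.40%).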

How the results depend on the processing

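Of 23 alternative settings, 20 called no ribosomal protein gene in limma. Array weights called 6 higher and 4 lower (Rpl4, Rpl7, Rpl13a, Rpl14, Rpl18, Rpl19, Rpl38, Rpl7l1, Rps28 and Rps29) while calling 35.1% of all genes. Leaving out trex 1 and trex 2 together called 4 higher (Rpl4, Rpl13a, Rpl32, Rps3) and 1 lower (Rpl7l1), with 20.3% of all genes. Leaving out single libraries gave 0 higher each time and 0 to 2 lower, the 2 (Rpl7l1 and Rps29) without trex 2, a median difference of 0.036 to 0.135 and a ratio of sums of 1.05 to 1.14. With the replicate number as a block, 0 members were called, 9 had an unadjusted p below 0.05 and the median was 0.098. Same-numbered libraries correlated at 0.162, -0.023, -0.004 and 0.252 (numbers 1 to 4), each best with its own number only for 1 and 4, so the numbers were not taken as pairs. The block called 404 genes of the whole table higher and 283 lower, and sex as a covariate 9 and 30. Named members changed sign as follows. Rpl34 was at -0.81 with array weights, -1.53 with sex, -1.59 without trex 1 and 2, and from -0.52 (without trex 1) to 0.73 without single libraries. Rpl24 was at -0.24 with sex, -0.12 without trex 1 and 2, and from -0.16 (without wt 2) to 0.30 without single libraries. Rpsa was at -0.0010 with median-of-ratios, -0.025 with quantile normalization, -0.0059 without globin, mitochondrial and sex chromosome genes, -0.013 with voom, and from -0.021 (without wt 4) to 0.096 without single libraries. Rps6 was at 0.18 and Rps27 at 0.033 with array weights, and Rpl11 at -0.041 without trex 1 and 2. Without single libraries Rps6 ran from -0.31 to 0.075, Rpl22l1 from -0.015 to 0.23 and Rps19 from -0.013 to 0.19, in each with the change of sign without trex 1. The median over the members stayed above 0 under all 23 settings, but these reuse the same 8 libraries and are not separate support. The median over all genes ran from -0.0092 (quantile normalization) to 0.050 (without trex 2). The members exceeded it by 0.015 (without trex 1) to 0.088 (without wt 1). Between single libraries of a genotype the median of the members had a pooled SD of 0.102. The main median of 0.098 rests on means of 4 libraries per genotype, so this SD is not its standard error. The part of depth and of shared sequence in the values of weakly expressed members was not tested.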

Other observations

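Free Rpl5 and Rpl11 can activate p53 by binding Mdm2. Of 16 target genes 3 were higher in trex and 2 lower at an adjusted p below 0.05 in limma, where 4.94% of all tested genes were called higher and 3.77% lower. Fas, a death receptor gene, rose from 1.46 ± 0.427 to 4.22 ± 0.874 TPM, and Pmaip1, which encodes a BH3-only death protein, from 2.63 ± 0.427 to 7.70 ± 3.59 TPM (SD, n = 4 each). Perp, a gene of epithelial junctions and cell death, rose from 15.5 ± 2.23 to 25.03 ± 4.72 TPM. Trp53inp1 fell from 25.5 ± 2.36 to 17.6 ± 1.97 TPM and Btg2, an antiproliferative gene, from 64.7 ± 8.99 to 42.0 ± 8.63 TPM. Pmaip1 was highest in trex 1, at 13.1 TPM, with 5.60 to 6.35 TPM in the other trex libraries. Among targets not called, Cdkn1a was lower in all trex than in all wt libraries, at -0.44 on the log2 scale (adjusted p = 0.101 in limma). Mdm2, Bax and Ccng1 differed by 0.010, 0.034 and 0.036. The list's median log2 difference was 0.024, beside 0.039 over all genes. Higher calls numbered 1 without trex 3, trex 4 or any 1 wt library. Lower calls numbered 3 without trex 2, 1 without trex 3, wt 3 or wt 4 and 0 without trex 4, wt 1 or wt 2. Perp, Btg2, Cdkn1a, Mdm2, Bax and Ccng1 were chosen after their values were seen. Perp is also active in surface ectoderm, whose marker list summed to 315 to 636 TPM in trex and 235 to 313 TPM in wt, and its part was not tested.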
